A study of Homo sapiens with 6 samples.

Results

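DEAD and DEAH box proteins are RNA helicases that use ATP to open short RNA duplexes and to remodel complexes of RNA and protein. They drive the steps of pre-mRNA splicing, the assembly of ribosomes, mRNA export, translation and RNA decay, and are named DDX or DHX after the DEAD or DEAH letters of a conserved motif. The genes described here are those whose single gene name begins with DDX or DHX and a number, without DDX5, which was left out by definition. They were chosen by name and not by any value, though earlier results of these data were known when the choice was made. The pattern matched 44 of the 11805 genes named alone in at least 1 list, 29 DDX and 15 DHX genes on 18 chromosomes. Together they held 728 of 188027 F125A clusters and 1153 of 366429 WT clusters.

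The clusters are places in introns of protein-coding genes, on hg38, where RNA was shielded from nuclease in purified complexes of FLAG-tagged Rbfox1 with LASR, a large assembly of splicing regulators. Rbfox1 is a splicing factor that binds GCAUG in introns, and F125A exchanges a phenylalanine of its RNA recognition motif. The F125A group had 2 libraries with FLAG-Rbfox1(F125A), the WT group had 3 libraries with FLAG-Rbfox1(WT), and 1 control library came from cells with no transgene. The libraries all derive from clone 7 of an Rbfox2 knockout of HEK293 Flp-In, a human embryonic kidney cell line built to take up transgenes at a defined locus. By label, cells of every group thus lacked Rbfox2 and stood for 1 clone.

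Each group is represented by 1 list of places, so no value has a replicate error, no test of the conditions was possible, and the intervals given are exact (Clopper-Pearson) 95% intervals that cover counting error only. The lists hold no read counts, so depth is unknown, and cell markers could not be checked. The control library was not analysed here. The F125A list was the shorter, with 1.95 WT clusters for each F125A cluster over all genes. In such lists, fewer clusters in a gene and less of that gene's RNA in the cells cannot be told apart.

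The bases of most clusters could not be read without a genome sequence. A few clusters of helicase genes lay in a window of 300 bases around an annotated transcript start (250 bases before to 50 after), for which RefSeq's GRCh38.p14 sequence was at hand. They are shown because they are the places where the RNA itself can be seen, 5′ to 3′ on the strand of the gene, with every run of at least 3 G in capitals.
DHX9, F125A, chr1:182839550-182839592 (+): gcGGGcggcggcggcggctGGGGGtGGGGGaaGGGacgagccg
DHX9, WT, chr1:182839547-182839592 (+): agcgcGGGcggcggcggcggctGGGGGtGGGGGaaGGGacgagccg
DDX6, F125A, chr11:118791005-118791045 (-): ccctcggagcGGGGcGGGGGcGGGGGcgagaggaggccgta
DDX6, WT, chr11:118791002-118791045 (-): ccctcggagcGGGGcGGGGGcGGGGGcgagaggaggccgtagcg
DDX6, F125A, chr11:118790958-118791004 (-): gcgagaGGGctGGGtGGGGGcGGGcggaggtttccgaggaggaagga
DDX6, WT, chr11:118790955-118791001 (-): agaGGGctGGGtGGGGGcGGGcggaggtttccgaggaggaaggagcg
DDX55, F125A, chr12:123617936-123618011 (+): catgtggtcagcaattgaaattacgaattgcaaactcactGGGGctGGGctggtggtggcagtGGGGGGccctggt
DDX55, WT, chr12:123617970-123618012 (+): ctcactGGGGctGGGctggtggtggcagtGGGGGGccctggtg
DDX52, WT, chr17:37642710-37642801 (-): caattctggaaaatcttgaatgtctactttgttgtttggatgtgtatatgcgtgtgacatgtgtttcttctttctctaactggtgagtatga
DHX34, WT, chr19:47349346-47349364 (+): gcgtgtggtaagtgaGGGG

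The DHX9, DDX55 and DDX52 clusters were read from start windows of long noncoding RNA (lncRNA) genes, DHX9-AS1, LOC105370041 and LOC105371756. The DDX55 WT cluster runs 3 bases past the window, and its first 43 bases are shown, as are the first 19 of 55 bases of the DHX34 WT cluster. In DHX9 and DDX6 the F125A and WT clusters covered nearly the same bases, and in DDX55 the F125A cluster began further 5′. In all 3 genes the clusters of both lists shared their G runs. The DDX52 cluster, found with WT alone, had no run of 3 G and held GTGAGT, letters common at 5′ splice sites. In DHX34, clusters of both lists held the like letters GTAAGT. The DDX6 clusters lie between annotated transcript starts, upstream of the most 3′ one, so they are intronic by the authors' lists but not in every annotated transcript. The adjoining pair in DDX6 was cut at a place 3 bases apart in the lists, so the edge between 2 clusters there is a boundary between touching places and not a gap.

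The letters GCATG, the DNA form of the Rbfox pentamer, were searched on the sense strand of every cluster that lay whole inside a RefSeq start window. None of the 5 F125A and none of the 5 WT clusters of helicase genes held it, including a DDX1 and a DDX31 cluster not shown, which allows a share of up to 52.2% in each list. Over all genes, 30 of 854 such F125A clusters held GCATG, or 3.51% (2.38 to 4.98%), and 119 of 999 such WT clusters, or 11.9% (9.97 to 14.1%). With these shares, 5 clusters are too few to show whether the helicase genes differ from other genes. A run of 3 G was present in 93.1% of the 854 F125A and 89.2% of the 999 WT clusters, and GTAAGT or GTGAGT in 5.27% and 5.11%. On either strand, GCATG was present in 29.5%, GGG in 99.5%, and GTAAGT or GTGAGT in 18.2% of all 34943 start windows. Windows around gene starts are rich in G and C, so these shares do not describe introns at large.

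Clusters were spread unevenly over the helicase genes, and most genes were found with both proteins. Of the 44 genes, 42 had clusters in both lists, or 95.5%, beside 88.1% of all 11805 genes. The other 2 had clusters in the WT list alone: DDX60, an antiviral helicase (0 F125A and 3 WT clusters), and DDX19B, an mRNA export helicase (0 and 1). DDX10, which takes part in assembly of the small ribosomal subunit and is the longest of them at 275.9 kb, had the most, with 71 F125A and 177 WT clusters. It was followed by DHX9 (RNA helicase A) with 55 and 80, DDX46 with 53 and 71, DHX15 with 52 and 79, DDX17 with 47 and 51, and DDX42 with 35 and 46. These 6 genes held 43.0% of the F125A and 43.7% of the WT clusters of the family. Although the F125A list was the shorter, DDX51, a ribosome assembly helicase (8 and 7), and DDX41, a helicase of the catalytic spliceosome (4 and 1), had more F125A than WT clusters, and DDX19A (6 and 6) and DDX27 (4 and 4) had equal numbers.

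**Figure D1:**
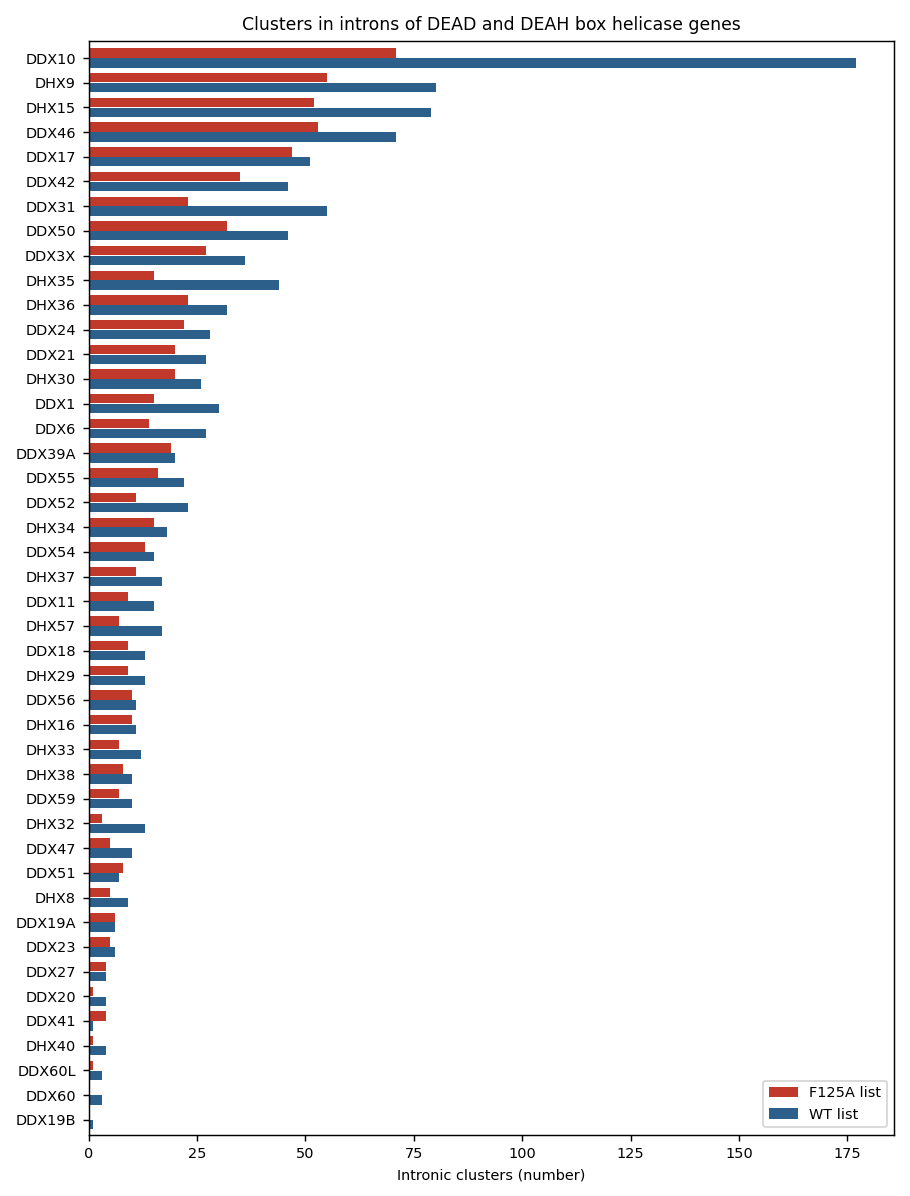
Number of intronic clusters (horizontal axis) in the F125A list (upper bar) and the WT list (lower bar) for each of the 44 helicase genes, ordered by the sum of both. DDX10 had 71 F125A and 177 WT clusters, and 16 genes had fewer than 20 in both lists together.

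Another 9 protein-coding genes of the pattern in RefSeq's table, which has 53 without DDX5, were named alone in neither list as used here, among them DDX4, DDX25, DDX28, DDX43, DDX49, DDX53 and DHX58. DDX39B, the UAP56 helicase of splicing and mRNA export, stood only beside the read-through gene ATP6V1G2-DDX39B, in 28 F125A and 28 WT clusters. These lay in a stretch of 5433 rows that read identically in both lists, so they compare nothing, and none of the 728 and 1153 clusters described here lay in it.

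Relative to the list totals, most helicase genes had somewhat more F125A clusters than the list ratio gives, and none lay 2-fold away. The measure is the log2 ratio of F125A to WT clusters, with 1 added to each number, from which the log2 ratio of the whole lists (-0.96) was subtracted, so 0 stands for the ratio of the lists as a whole. It is given for the 28 helicase genes whose clusters in both lists come to at least 20, a minimum that 5626 genes passed. Of the 28, 23 lay above 0 (53.5% of the 5626) and 5 below (46.5%), with a median of 0.49 and quartiles of 0.23 and 0.61. Over the 5626 genes the median was 0.04 and the quartiles were -0.26 and 0.36. None of the 28 lay 2-fold or more toward F125A, against 1.99% of the 5626, and none 2-fold or more toward WT, against 2.51%. Summed over all 44 genes, including the 16 below the minimum, the log2 ratio was 0.30. Medians were 0.54 over 18 DDX genes and 0.45 over 10 DHX genes, but 0.14 and 0.36 relative to genes of similar length, which turns their order round. The difference was not tested.

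Most single ratios could not be told from 0. Only for DDX17 did the exact interval lie wholly on one side, above 0. That is 1 of 28 genes, where 4.37% of the 5626 had an interval wholly above 0 and 5.85% one wholly below. DDX17 is the close paralog of DDX5, itself a LASR subunit. It had 47 F125A and 51 WT clusters, a log2 ratio of 0.85 (interval 0.24 to 1.45). With the median of genes of like length subtracted, DDX17 lay at 0.42 and its interval, moved by the same amount, ran from -0.19 to 1.01 and held 0. On that scale DDX46 lay at 0.56, with an interval of 0.01 to 1.08, and no other interval of the 28 lay wholly on one side. The share of all genes with such an interval on that scale was not computed. An interval moved in this way leaves out the error of the subtracted median.

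**Figure D2:**
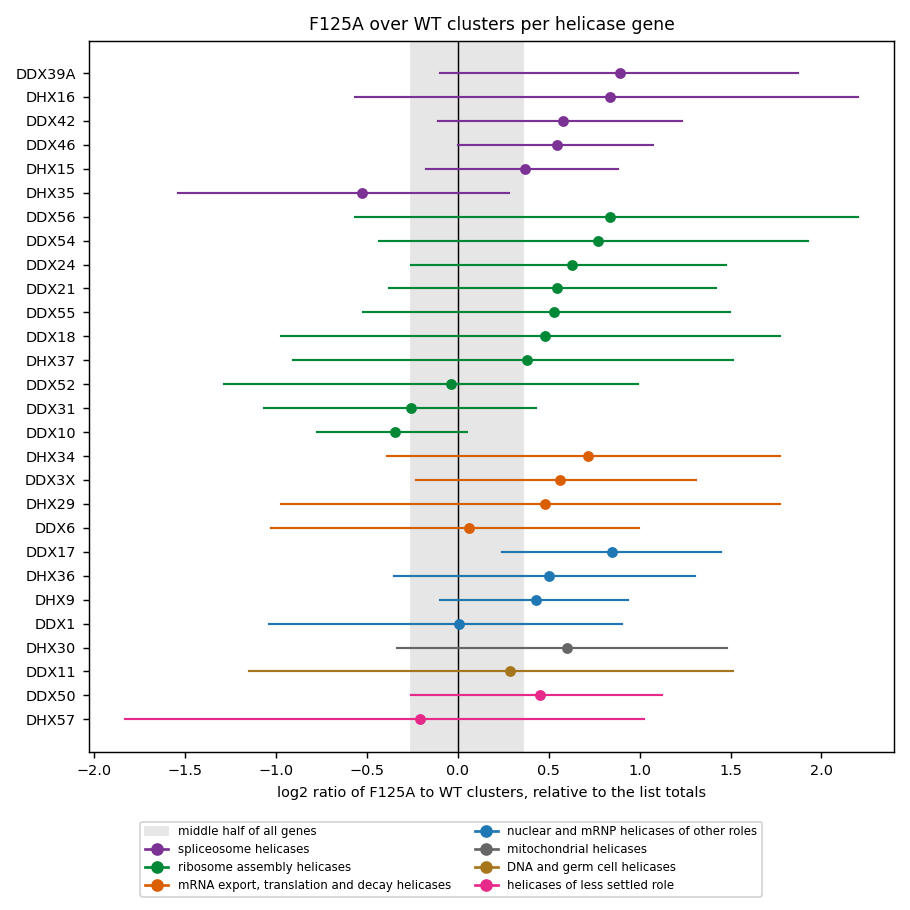
Log2 ratio of F125A to WT clusters relative to the list totals (horizontal axis) for the 28 helicase genes with at least 20 clusters, coloured by role. Points are ratios, lines exact 95% intervals without the added 1, and the grey band runs over the quartiles of all 5626 genes. The line of DDX17 alone does not reach 0.

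Gene length went with the ratio, in the family as over all genes. Spearman's rho between ratio and annotated gene length was -0.67 over the 28 helicase genes and -0.57 over the 5626, given as a description of points that share the same pair of lists. The 6 helicase genes under 25 kb had a median ratio of 0.84 and all lay above 0, beside a median of 0.58 over 725 genes of that class, 90.5% of which lay above 0. In the class of 25 to 50 kb the median was 0.50 over 14 helicase genes and 0.24 over 1358 genes. Over 50 kb it was 0.08 over 8 helicase genes and -0.11 over 3543 genes. When each ratio was set against the median of genes in the same of 20 length bins, the median of the 28 was 0.23, with 19 above 0 (49.4% of the 5626), 8 below (49.7%) and DDX18 at 0. On this scale too none of the 28 lay 2-fold or more toward F125A (0.462% of the 5626) or toward WT (2.1%).

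**Figure D3:**
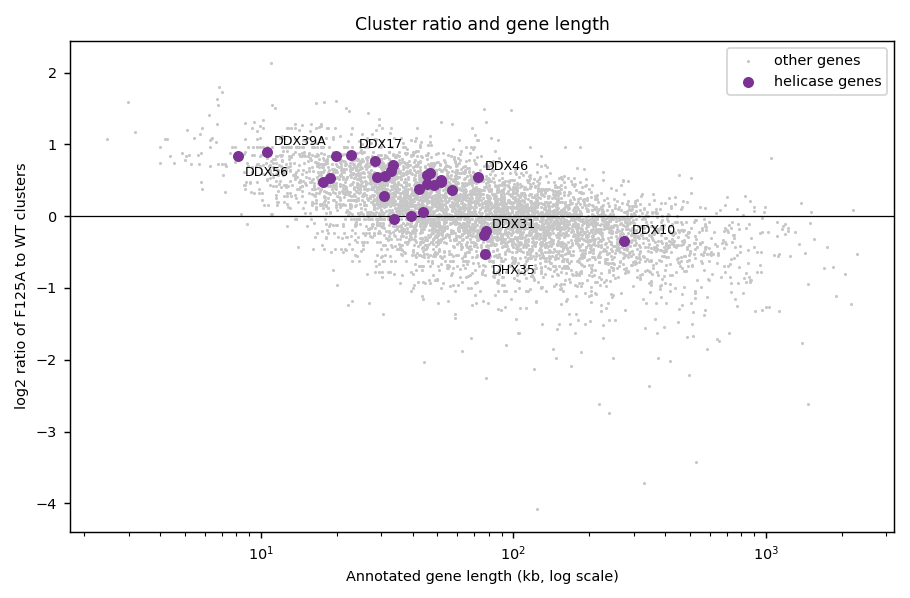
Log2 ratio of F125A to WT clusters (vertical axis) against annotated gene length in kb (horizontal log axis) for 28 helicase genes (large points) and all others that reach 20 clusters (small points). Short genes such as DDX39A and DDX56 lie high and the longest, DDX10, lies at -0.34.

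The spliceosome helicases, which drive the steps from branch-site recognition to disassembly, had a log2 ratio of 0.43 summed over the 10 listed genes with clusters (206 F125A and 297 WT). Of the 6 with enough clusters, 5 lay above 0 (53.5% of the 5626 genes) and 1 below (46.5%). Relative to genes of similar length the counts were again 5 and 1 (49.4% and 49.7%). DDX39A, which acts in mRNA export, was counted in this list and is 1 of the 5. DDX46, the human PRP5 that acts at the branch site, lay at 0.55 (interval -0.00 to 1.07), and at 0.56 relative to genes of similar length, the highest of the 28 on that scale. DDX42, which binds the SF3B complex, lay at 0.58 (-0.11 to 1.23). DHX15, the PRP43 helicase that takes spliceosomes apart, lay at 0.37 (-0.17 to 0.88). DDX39A, a close relative of DDX39B that acts in mRNA export, had 19 F125A and 20 WT clusters and the highest ratio of the 28 at 0.89 (-0.10 to 1.87), but it is only 10.6 kb long and lay at 0.17 relative to genes of similar length. DHX16, the PRP2 helicase, had 10 and 11 clusters (0.84, -0.57 to 2.20).

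DHX35, a component of the catalytic spliceosome, ran the other way. It had 15 F125A and 44 WT clusters, the lowest ratio of the 28 at -0.53 (interval -1.54 to 0.28), which stayed at -0.52 relative to genes of similar length. DHX35 and DDX46 are of like length, 77.4 and 72.3 kb. The difference between them was not tested. The remaining spliceosome helicases had few clusters: DHX38 (PRP16) had 8 F125A and 10 WT, DHX8 (PRP22) 5 and 9, DDX23 (PRP28) 5 and 6.

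Among the ribosome assembly helicases the summed log2 ratio was 0.09 over 14 genes with clusters (230 F125A and 421 WT), and DDX10 alone gave 71 and 177 of these. Of the 10 with enough clusters, 7 lay above 0 (53.5% of the 5626 genes) and 3 below (46.5%). The 3 below were DDX10 at -0.34 (interval -0.77 to 0.05), DDX31, a nucleolar helicase, with 23 and 55 clusters at -0.26 (-1.06 to 0.43), and DDX52, with 11 and 23 at -0.04. DDX10 moved to -0.03 relative to genes of similar length, DDX31 stayed at -0.25 and DDX52 lay at -0.32. Above 0 were DDX56 (10 and 11, 0.84), DDX54 (13 and 15, 0.77), DDX24 (22 and 28, 0.63), DDX21 (20 and 27, 0.55), DDX55 (16 and 22, 0.53), DDX18 (9 and 13, 0.48) and DHX37 (11 and 17, 0.38). Every one of these 7 intervals held 0, and relative to genes of similar length DDX56 lay at 0.12, DDX55 at 0.05 and DDX18 at 0. On that scale 6 of the 10 lay above 0 (49.4% of the 5626) and 3 below (49.7%).

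DDX50 and DDX21, close paralogs that lie next to each other on chromosome 10, gave similar values. DDX50 (68901315 to 68946847) had 32 F125A and 46 WT clusters (0.45, interval -0.26 to 1.12), and DDX21 (68956170 to 68985068) 20 and 27 (0.55, -0.38 to 1.42).

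The helicases of mRNA export, translation and decay lay above 0 in all 4 genes with enough clusters, as did 53.5% of the 5626 genes. Relative to genes of similar length, 3 lay above 0 (49.4% of the 5626) and 1 below, DDX6 at -0.06. DDX3X, which acts in translation initiation, had 27 F125A and 36 WT clusters (0.56, interval -0.23 to 1.31). DHX34, of nonsense-mediated decay, had 15 and 18 (0.71), and DHX29, which helps ribosomes scan structured leaders, 9 and 13 (0.48). The span of an annotated lncRNA gene, CCNO-DT, held 4 of the 9 F125A and 8 of the 13 WT clusters of DHX29. That count went by position alone, and the strand of CCNO-DT was not compared with that of the clusters. DDX6, of mRNA storage and decay in P-bodies, had 14 and 27 clusters and lay close to the list ratio at 0.06 (-1.03 to 1.00). The clusters near its start, shown above, overlap between the lists.

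In the other nuclear and RNP helicases, DHX9 lay at 0.43 (interval -0.10 to 0.94) and DHX36, which unwinds G-quadruplexes, had 23 F125A and 32 WT clusters (0.50, -0.35 to 1.30). DDX1, of the tRNA ligase complex, had 15 and 30 (0.01, -1.04 to 0.90), the ratio of the lists as a whole. DHX30, of mitochondrial ribosome assembly, had 20 and 26 (0.60), and DDX11, a DNA helicase of sister chromatid cohesion, 9 and 15 (0.28). DDX11 has near-identical copies elsewhere in the genome, so its clusters are uncertain, as are those of DDX19A and DDX19B, close paralogs side by side on chromosome 16. DHX57, of unsettled role, had 7 and 17 clusters (-0.21).

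The 16 genes below the minimum held 65 F125A and 103 WT clusters together. Apart from those named above they were DHX33 (7 and 12), DDX59 (7 and 10), DHX32 (3 and 13), DDX47 (5 and 10), DDX20 (1 and 4), DHX40 (1 and 4) and DDX60L (1 and 3). DDX60 and DDX60L, interferon-induced and next to each other on chromosome 4, are 109.7 and 123.8 kb long, yet held at most 3 clusters in either list.

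Per length, the most densely covered helicase gene was DDX17. It had 20.5 F125A and 22.3 WT clusters per 10 kb of annotated gene, and clusters covered 16.4% and 16.6% of its length. In the order of F125A density, DDX39A followed with 17.9 F125A and 18.9 WT clusters per 10 kb, DDX56 with 12.3 and 13.6, and DHX9 with 11.3 and 16.4. With WT, DHX9 and DHX15 (13.8) stood above DDX56. At the other end of the 28 genes, DHX57 had 0.90 F125A and 2.17 WT clusters per 10 kb. The median over the 28 was 4.81 F125A and 7.25 WT clusters per 10 kb, beside 2.97 and 5.80 over the 5626 genes.

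Relative to the median of genes of similar length, density was 3.88 times as high in DDX17 with F125A and 2.74 times with WT. DHX9 stood at 3.67 and 2.74 times, DDX46 at 2.97 and 1.85, DHX15 at 2.82 and 2.21, DDX42 at 2.41 and 1.74, DDX50 at 2.20 and 1.74 and DDX10 at 2.01 and 2.05. The median over the 28 was 1.27 with F125A and 1.14 with WT, and 19 and 18 of them lay above 1. DDX10 is crossed by an annotated lncRNA gene, LOC124902750, whose span of 80188 bases held 41 of its F125A and 82 of its WT clusters. This count too went by position alone, and the strand of LOC124902750 was not compared with that of the clusters. The lists give a strand for each cluster but do not name the RNA it came from.

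In helicase genes, F125A clusters mostly had a WT counterpart. At least 1 nt on the same strand was shared with a WT cluster by 585 of the 728, or 80.4% (77.3 to 83.2%), beside 85.5% over all F125A clusters. Of the 1153 WT clusters, 596 overlapped an F125A cluster, or 51.7% (48.8 to 54.6%), beside 45.2% over all WT clusters. A shorter list limits how many clusters of the longer can have a partner. When overlapping clusters of both lists were joined, the helicase genes held 1250 places, of which 143 were in the F125A list alone (11.4%, 9.73 to 13.3%), 550 in both (44.0%, 41.2 to 46.8%) and 557 in the WT list alone (44.6%, 41.8 to 47.4%). Places were joined in helicase genes only. These shares thus have no counterpart over all genes and do not show whether helicase genes differ from others.

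**Figure D4:**
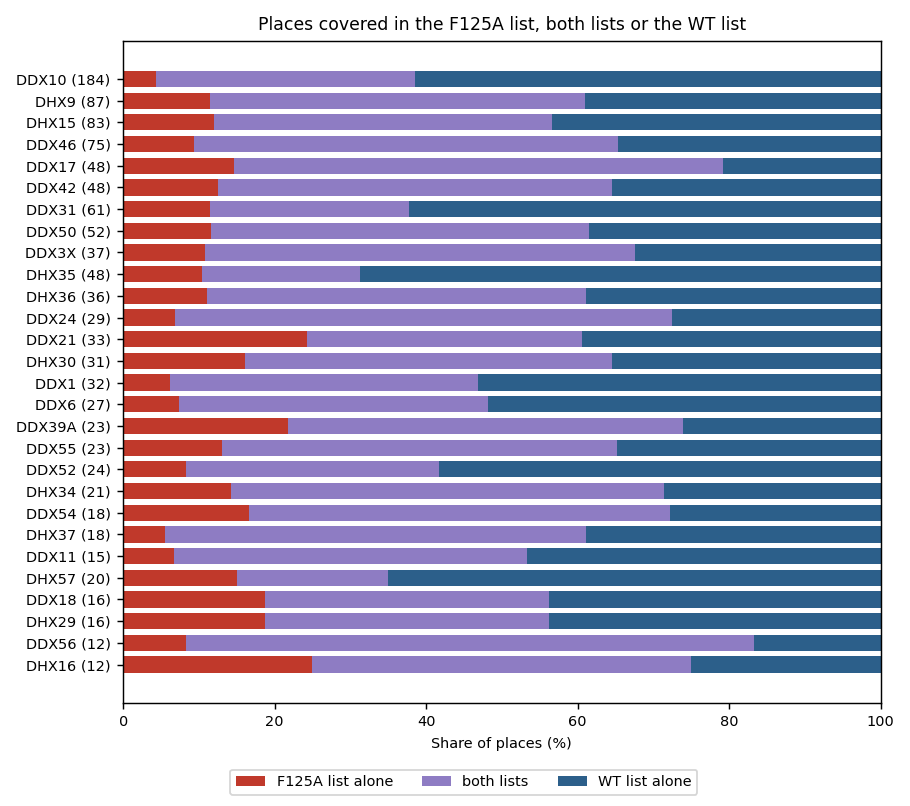
Share of places (horizontal axis, %) covered in the F125A list alone (left), in both lists (middle) and in the WT list alone (right) for the 28 helicase genes with at least 20 clusters. The number of places stands beside each gene, and the middle part is widest in DDX56 and narrow in DHX35, DHX57 and DDX31.

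The genes differed in how many WT places had an F125A counterpart. In DDX17, 80.4% of the 51 WT clusters had an F125A partner and in DDX56 81.8% of 11. In DDX10 36.2% of 177 had one, in DDX31 30.9% of 55, in DHX35 11 of 44 and in DHX57 23.5% of 17. The last 4 also had the fewest F125A clusters per WT cluster among the 28. Seen from F125A, 40 of the 47 clusters of DDX17 had a WT partner, 63 of 71 in DDX10 and 10 of 15 in DHX35. In DDX21, 12 of 20 F125A clusters had one, with an interval of 36.1 to 80.9%. In DDX41, none of the 4 F125A clusters overlapped the single WT cluster.

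F125A clusters were the longer, as over all genes. In helicase genes their median length was 67 nt (quartiles 50 and 87 nt) and that of WT clusters 60 nt (47 and 77 nt), beside 64 and 60 nt over all clusters. The median was longer with F125A in 19 of the 28 genes and longer with WT in 9. F125A clusters without a partner had a median of 75 nt and those with one 65 nt, whereas WT clusters without a partner were the shorter, at 56 and 64 nt. Clusters over 100 nt made up 14.6% of the F125A (12.1 to 17.3%) and 8.15% of the WT clusters (6.64 to 9.88%), beside 11.4% and 7.74% over all genes. As in DDX6 above, 44 F125A and 64 WT clusters directly touched the next one, so lengths depend on where neighbours were divided.

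The longest F125A cluster of the family, 188 nt in DHX9 (chr1:182866515-182866702, 27.2 kb from the gene start), overlapped no WT cluster, nor did one of 171 nt in DDX55 (chr12:123607141-123607311). A cluster of 185 nt in DDX46 (chr5:134811421-134811605) shared 156 nt with a WT cluster of 177 nt (chr5:134811450-134811626). The 2 longest WT clusters both lay in DDX10. One of 193 nt (chr11:108910717-108910909) had an F125A partner over 114 nt, and one of 190 nt (chr11:108725046-108725235) had none.

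Along the genes, the pooled clusters lay more often on the 5′ side, but the genes were divided. The 5′ 50% of gene length held 56.5% of the F125A (52.8 to 60.1%) and 58.3% of the WT clusters (55.4 to 61.1%), beside 60.7% and 59.8% over all genes. Without DDX10 and DDX3X the shares were 52.4% (48.4 to 56.3%) and 54.3% (51.0 to 57.5%). By gene, the 5′ side held more than 50% of F125A clusters in 15 of the 28 genes and less in 13, and of WT clusters in 17 and 10, with 1 at 50%. The first 10% held 10.3% of F125A and 10.2% of WT clusters in helicase genes, beside 15.7% and 13.9% over all genes. The share within 1 kb of the annotated start was 4.67% with F125A (3.26 to 6.47%) and 3.73% with WT (2.71 to 4.99%), intervals that overlap, beside 3.47% and 2.02% over all genes. The share within 5 kb of the annotated end was 9.62% with F125A (7.57 to 12.0%) and 6.85% with WT (5.46 to 8.47%), beside 5.27% and 3.82%. A window of fixed size is a larger part of a short gene. The 28 helicase genes had a median length of 40.8 kb, and the 5626 genes one of 71.2 kb. In the last 10% of gene length lay 3.71% of F125A helicase clusters (interval 2.46 to 5.35%), against 4.56% over all genes. For WT these shares were 4.68% (3.54 to 6.07%) and 4.57%. The fixed windows thus do not show that helicase clusters gather near gene ends.

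Single genes differed in where their clusters lay. In DDX3X all 27 F125A and all 36 WT clusters lay in the 5′ 50% of the annotated 31.2 kb, and none began beyond 13.8 kb with F125A or 14.1 kb with WT. A stretch of 5 kb near its start held 17 of the 27 and 21 of the 36. Places of exons were not at hand, so how much intron lies in the 3′ part of DDX3X is not known here. DDX17 had a dense run in the same place in both lists, with 22 of 47 F125A and 21 of 51 WT clusters within 5 kb from 14.2 kb on. DDX46 had one from 28.1 kb on, with 15 of 53 and 14 of 71, and DHX15 one from 43.3 kb on with F125A (14 of 52) and from 43.9 kb on with WT (14 of 79). These stretches are the densest 5 kb of each gene, picked from the same clusters, and were not counted over all genes. In DDX17, 40 of the 47 F125A clusters overlap a WT cluster, so a run shared by both lists is not a separate result. In DDX42 the 5′ 50% held 25.7% of F125A and 37.0% of WT clusters, in DDX11 22.2% and 26.7%, and in DDX56 3 of 10 and 36.4%, as examples of genes with more clusters on the 3′ side.

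**Figure D5:**
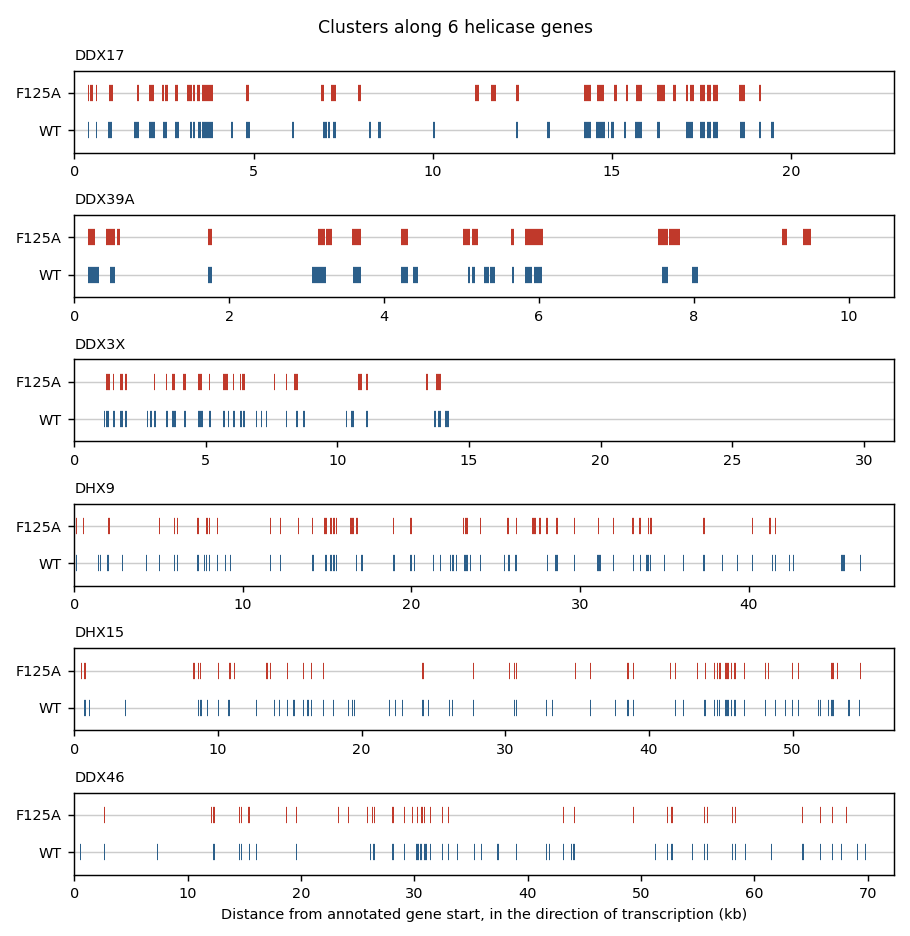
Position of clusters along DDX17, DDX39A, DDX3X, DHX9, DHX15 and DDX46, with F125A in the upper and WT in the lower row, as distance in kb from the annotated gene start (horizontal axis, a scale of its own for each gene). Each mark is 1 cluster drawn to length. Dense runs lie in the same places in both rows of DDX17 and DDX46, and DDX3X has no mark in its 3′ part.

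Other RNA helicases that carry no DDX or DHX name had ratios nearer to 0. Of 22 listed genes, 17 had clusters (547 F125A and 1048 WT in all) and 12 had enough, 8 of them above 0, 4 below, median 0.09. Over the 5626 genes, 53.5% lay above 0 and 46.5% below. ASCC3, which splits stalled ribosomes, had 128 F125A and 319 WT clusters (-0.35), YTHDC2, an m6A reader, 90 and 135 (0.38), and HELZ 80 and 144 (0.12). EIF4A2, a translation initiation factor of the DEAD box type, was the only one of the 12 that lay 2-fold or more away, with 14 and 13 clusters (1.06), or 0.34 after allowing for length. Of the G-patch proteins, many of which bind and switch on DEAH helicases such as DHX15, 15 of 22 had enough clusters, 11 above and 4 below 0, with a median of 0.25. RBM6 had 84 and 138 (0.25), GPATCH8 60 and 124 (-0.07) and SON 66 and 71 (0.86). Set against genes of like length, the medians were 0.01 for the other helicases and 0.04 for the G-patch proteins. On that scale 6 of the other helicases lay above 0 and 5 below, and 10 and 4 of the G-patch proteins. The shares over the 5626 genes were 49.4% above and 49.7% below. No test of a difference between these lists and the DDX and DHX genes was made.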

How the data were processed

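RNA protected from nuclease was sequenced from purified FLAG-Rbfox1 complexes. Libraries held inserts of 20 to 80 nt and molecular identifiers of 4 nt, per the labels' protocols. Reads were handled with cutadapt and STAR on hg38, per the submitters' processing notes. Versions, the cluster caller, its threshold and any use of the control are not given in the sources used here. Deposited lists give, per the file headers, chromosome, start, end, gene, region and strand, with 1 list for each Rbfox1 group, and no count or score. Coordinates in nt, 0-based at the start, are printed 1-based. Repeated rows (4851 in the F125A and 7029 in the WT list) were dropped. All 44 gene names matched RefSeq's GRCh38.p14 table by symbol, which gave places and lengths without exons. Start windows were at hand for 41 of the 44, and a cluster's bases were read from any window that held it. Sample groups came from the labels' titles.

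Computations used Python 3.11.15, pandas 2.3.3, NumPy 2.4.6, SciPy 1.17.1 and matplotlib 3.10.9, and the ratio was tested on simulated data. The members and lists were chosen with earlier results of these data known, and the sequences, start windows, dense 5 kb stretches and plotted genes were picked afterwards. Named were all helicase genes, the 3 longest clusters of each list, and of the other 2 lists the 3 genes with most clusters and any past 2-fold. Alternatives covered repeats, merging, the identical stretch, the added count, the minimum, centring, gene length, covered nt, the overlap rule and the distance to the gene start.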

Additional observations from a re-analysis of the deposited data

How the results depend on the processing

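The median log2 ratio of helicase genes stayed above 0 under all 7 alternatives. It was 0.59 with 5 added in place of 1, where the median of all genes was itself 0.16, and 0.23 relative to genes of similar length, and it lay between 0.44 and 0.50 under the other 5. Between 19 and 31 genes lay above 0, the highest number among the 37 genes with at least 10 clusters. The count of genes 2-fold or more toward F125A, 0 in the main setting, became 1 of 37 with a minimum of 10 clusters (DDX51). With covered nt in place of clusters it became 1 of 28 (DDX39A). Over all genes the shares in these 2 settings were 3.61% of 7572 and 3.09% of 5626. Overlap shares were 72.7% of F125A and 45.9% of WT clusters when at least 50% of both clusters had to be shared. With clusters closer than 50 nt merged, median lengths were 72 nt with F125A and 64 nt with WT. Within 2 kb of the gene start lay 8.93% of F125A and 6.94% of WT clusters, beside 6.31% and 4.16% over all genes. Here too, a window of fixed size is a larger part of the shorter helicase genes. All 193 single-gene values under the alternatives stayed within their exact intervals. Those intervals are wide and come from the same counts, so this says little about stability. Some signs changed. Relative to genes of similar length, DDX11 went from 0.28 to -0.04, DDX1 from 0.01 to -0.19 and DDX6 from 0.06 to -0.06. With 5 added, DHX57 went from -0.21 to 0.09 and DDX52 from -0.04 to 0.16. Leaving out the identical stretch for the ratios was chosen after seeing the data. No paired analysis was possible because each list stands for a whole group and carries no replicate. Leaving out a replicate was not possible for the same reason. With no read counts, depth sets no limit that can be computed, and the number of clusters per gene limits the precision.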
